A study of Mus musculus with 8 samples.

Results

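The nuclear factor I (NFI) family is a set of 4 mouse transcription factor genes, Nfia, Nfib, Nfic and Nfix. Its members were taken as every probe whose gene name on the array equals one of these symbols, with control probes left out. This gave 4 of the 27281 genes tested, read by 12 of 55681 probes: 2 for Nfia, 5 for Nfib, 3 for Nfic and 2 for Nfix. All 12 passed the filter on dim probes, as did 39669 probes in all. Gene expression was measured on 8 single-colour arrays of total RNA from neurospheres, suspended balls in which neural stem and progenitor cells grow. The starting material was EB3, a line of mouse embryonic stem cells, which was passed through embryoid bodies formed with Noggin, an antagonist of bone morphogenetic proteins.

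Tertiary neurospheres (passage 2, P2) were set against primary neurospheres (passage 0, P0). At each passage there were 4 lentiviral conditions. One carried an shRNA directed at Nr2f1 and Nr2f2 together, and its control was an shRNA directed at firefly luciferase. The other vector type carried miR-17, and its control was a miRNA directed at lacZ. Dissociated embryoid body cells were infected at a multiplicity of about 25, and the primary spheres grew for 6 days in 20 ng/ml FGF2. They were dissociated and regrown with FGF2 to reach the later passages, and the P2 spheres were collected 6 days after their last dissociation. Every culture had therefore received a lentivirus, and no uninfected culture is analysed here. Each of the 8 groups had 1 array. A difference between 2 arrays had no replicate check, and passage was compared over 4 arrays against 4. Whether the cultures were grown separately is not stated in the labels, so p-values measure the spread between these arrays. The shRNA arrays lay in 1 column of the slide and the miRNA arrays in the other, so vector type and slide column cannot be told apart. Across the arrays the 75th percentile of intensity ranged between 530 and 1065, the share of non-control spots well above background ranged between 57.9% and 67.9%, and none of them was saturated.

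NFI proteins bind DNA as dimers at a palindrome with the arms TTGGC and GCCAA. In the developing nervous system Nfia, Nfib and Nfix are known for driving neural stem cells toward glial fates, with Nfia and Nfib switched on around the onset of gliogenesis in the embryonic spinal cord. Nfic is best known in the mouse for its part in tooth root formation. Nr2f1 and Nr2f2 encode the orphan nuclear receptors COUP-TFI and COUP-TFII. The series asks which regulators take part in the timing of neuron subtype production.

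Each NFI transcript was read by 60-base probes that hybridise to its RNA. The probes nearest the 5′ end of Nfia, Nfib and Nfix are shown because they fall in the early part of the transcript and behaved differently between the genes, as given with the passage and knockdown values. They start at bases 1068, 968 and 1163 of the transcripts named on the array. Each can be read through in at least 1 forward frame without a stop codon. So can probes further 3′, such as those at base 8687 of Nfib and base 5808 of Nfic. In mm9, the build of the array headers, the Nfia probe lies at chr4:97680930-97680989 on the plus strand. The Nfib probe lies at chr4:82144224-82144283 and the Nfix probe at chr8:87250416-87250475, both on the minus strand.
Nfia, base 1068: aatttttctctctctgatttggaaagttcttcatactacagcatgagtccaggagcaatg
Nfib, base 968: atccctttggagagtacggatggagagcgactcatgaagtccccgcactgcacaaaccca
Nfix, base 1163: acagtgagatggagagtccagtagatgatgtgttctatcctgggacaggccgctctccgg
Among the 51 pairs of probes for different NFI genes the longest shared run was 13 bases, so the 4 genes were read by distinct sequences.

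All 4 NFI genes were higher at P2 than at P0, in each of the 4 conditions. Levels are given as log2 of the intensity over the array's 75th percentile, so 0 is that percentile and a step of 1 is a doubling. A gene was read from its brightest probe, and levels of different genes are not set against each other because probes differ in brightness. The difference with passage was tested in limma with condition as a block, and p-values were adjusted by Benjamini-Hochberg over all 27281 genes. At an adjusted p under 0.05, 2.55% of all genes were higher at P2 and 4.81% changed in either direction.

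Nfix, which takes part in forebrain and glial development, had log2 levels of 0.80, 2.66, 3.80 and 3.70 at P2 in the Nr2f1/2 shRNA, control shRNA, miR-17 and control miRNA cultures, against -3.02, -2.73, -2.72 and -2.23 at P0 in the same order. The P0 levels lay close together and all P2 levels lay above them, with the Nr2f1/2 shRNA culture well below the others at P2. The passage difference was 5.41 ± 0.47 on the log2 scale (SE, 4 arrays against 4), a 42.6-fold rise with a limma adjusted p of 0.030. It ranked 58 from the top among all genes.

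Nfia, a gliogenic factor that acts with Sox9 in the mouse spinal cord, had log2 levels of -0.51, 0.25, 0.47 and 1.28 at P2 in the Nr2f1/2 shRNA, control shRNA, miR-17 and control miRNA cultures, against -2.25, -2.26, -2.94 and -2.09 at P0 in the same order. The passages did not overlap, and the lowest P2 level belonged to the Nr2f1/2 shRNA culture. Its passage difference was 2.76 ± 0.34 (SE), a 6.77-fold rise with a limma adjusted p of 0.036.

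Nfib, which is needed for glial development in the mouse forebrain, had log2 levels of 4.48, 4.97, 5.27 and 5.37 at P2 in the Nr2f1/2 shRNA, control shRNA, miR-17 and control miRNA cultures, against 2.39, 2.89, 2.10 and 2.74 at P0 in the same order. The passages again did not overlap, and the conditions stood closer together at P2 than for Nfix. Its passage difference was 2.49 ± 0.26 (SE), a 5.63-fold rise with a limma adjusted p of 0.032.

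Nfic had log2 levels of 1.86, 2.57, 3.29 and 3.33 at P2 in the Nr2f1/2 shRNA, control shRNA, miR-17 and control miRNA cultures, against 0.50, 0.55, 0.77 and 0.82 at P0 in the same order. Its P0 levels spanned 1.25-fold, against 2.78-fold at P2. Its passage difference was 2.10 ± 0.27 (SE), a 4.29-fold rise with a limma adjusted p of 0.036, the smallest rise among the 4 genes.

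**Figure D1:**
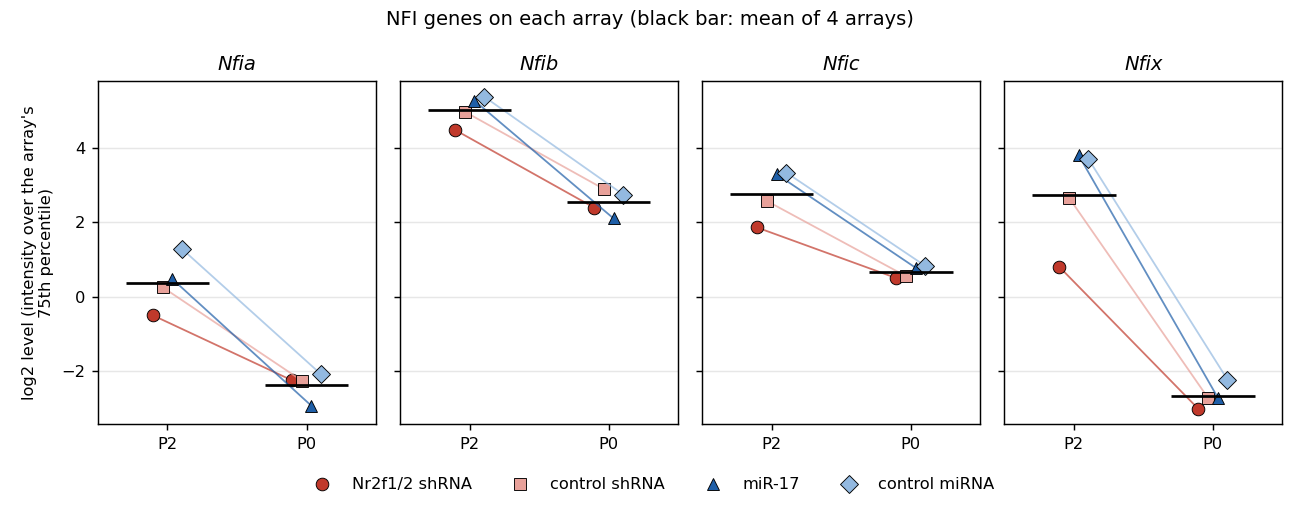
Log2 level of each NFI gene (vertical axis, log2 of intensity over the array's 75th percentile) at P2 and P0 (horizontal axis), 1 point per array, with lines joining the arrays of 1 condition and black bars at the mean of 4 arrays. Every P2 point lies above every P0 point of the same gene, and the Nr2f1/2 shRNA culture is the lowest P2 point in all 4 panels.

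The 4 P2 arrays all lay above the 4 P0 arrays for each of the 4 genes, as they did for 9.23% of all genes tested. Over all genes the median passage difference was -0.21, so relative to it the NFI genes stood 2.97 (Nfia), 2.70 (Nfib), 2.31 (Nfic) and 5.62 (Nfix) log2 units higher. Within the 4 miRNA arrays the passage differences were 3.39, 2.90, 2.52 and 6.22 for Nfia, Nfib, Nfic and Nfix, and within the 4 shRNA arrays they were 2.13, 2.08, 1.69 and 4.60. Each gene thus rose more in the miRNA arrays than in the shRNA arrays, a gap that was not tested on its own. In limma fits of those subsets the 4 genes passed the threshold in the miRNA arrays (adjusted p 0.002 to 0.003), where 50.3% of all genes passed. They did not pass in the shRNA arrays (adjusted p 0.130 to 0.171), where 0 genes passed in all. The call also needed most conditions. With 1 array of the miR-17, control miRNA or control shRNA condition left out, none of the 4 genes passed (adjusted p 0.117 to 0.157, with 0 genes called over all), while with 1 Nr2f1/2 shRNA array left out all 4 did (adjusted p 0.012 to 0.019, with 17.5% of all genes called).

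The rise was seen on every probe. In the probe-level fit all 12 NFI probes were higher at P2 with limma adjusted p of 0.031 to 0.046, where 2.76% of all probes tested were higher. The passages did not overlap on any of the 12, as on 8.59% of all probes. The fold ranged between 2.64 for the 5′ probe of Nfia and 51.6 for the 3′ probe of Nfix. Of the 12 probes, 10 lay well above background on all 8 arrays. The Nfia probe at base 1068 was not well above background on the control miRNA array at P0, and the Nfix probe at base 5268 was not on the miR-17 array at P0.

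For Nfix, the probes at bases 1163 and 5268 gave close passage differences, 5.41 ± 0.47 and 5.69 ± 0.45 (SE). For Nfic the probes at bases 1473, 5808 and 6114 gave 2.26 ± 0.35, 1.75 ± 0.25 and 2.10 ± 0.27. For Nfib the probe at base 968 gave 2.00 ± 0.22, and those at bases 2799, 6549, 8212 and 8687 gave 2.49, 2.84, 2.96 and 2.85. The 5′ probe of Nfib was thus the lowest of its set, and for Nfia the gap between probes was wider: 1.40 ± 0.25 at base 1068 and 2.76 ± 0.35 at base 5567.

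That Nfia probe had log2 levels of -2.55, -2.87, -3.14 and -2.98 at P2 in the Nr2f1/2 shRNA, control shRNA, miR-17 and control miRNA cultures, against -3.42, -4.09, -4.63 and -4.98 at P0 in the same order. Its conditions stood in a different order than on the Nfia probe at base 5567, with the Nr2f1/2 shRNA culture highest at both passages. The dimmest level well above background was -5.12 on the Nr2f1/2 shRNA array and -4.74 on the control shRNA array at P0, and -4.90 and -4.86 on the miR-17 and control miRNA arrays. The part that dimness plays was not tested. The 5′ probe of Nfib had P2 levels of 0.46, 0.43, 0.49 and 0.47 in the Nr2f1/2 shRNA, control shRNA, miR-17 and control miRNA cultures, against -1.35, -1.16, -1.94 and -1.69 at P0. Its P2 levels were nearly equal, with an SD of 0.03, whereas the SD over the same arrays was 0.40 to 0.52 on the other Nfib probes.

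**Figure D2:**
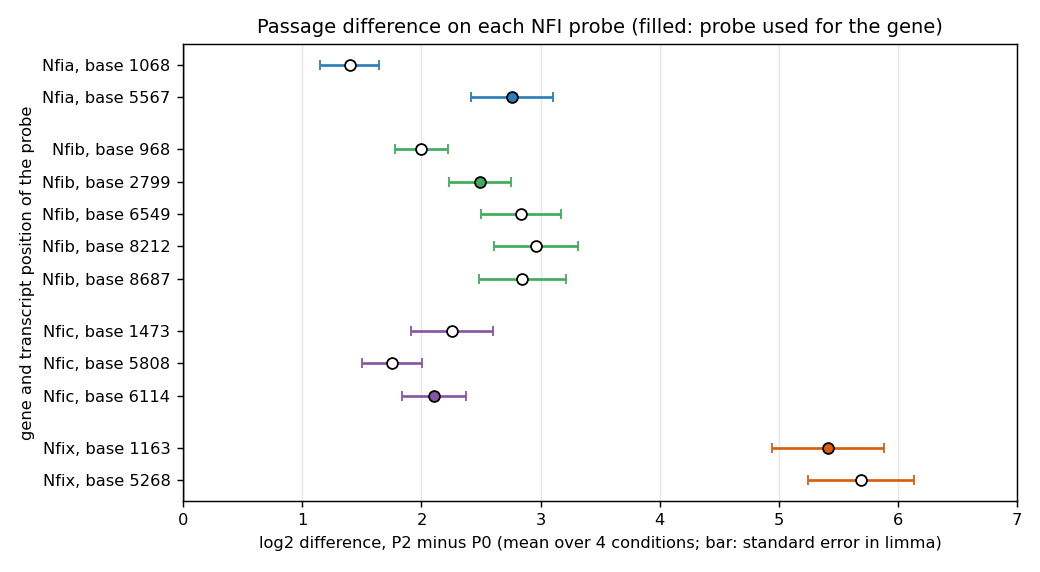
Passage difference of each of the 12 NFI probes (horizontal axis, log2 P2 minus P0, mean over 4 conditions, with standard errors from limma), listed by gene and by the transcript base at which the probe starts. All 12 lie above 1, both Nfix probes lie above 5, and the probes nearest the 5′ end are the lowest of the Nfia and Nfib sets.

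The second comparison asked what the shRNA against Nr2f1 and Nr2f2 did to the NFI genes. The target genes were checked first. Nr2f1 had log2 levels of 3.73 and 5.37 at P2 and P0 in the Nr2f1/2 shRNA cultures, against 4.90 and 6.16 in the control shRNA cultures. Its levels were 5.55 and 5.52 with miR-17 and 5.67 and 5.07 with the control miRNA, at P2 and P0. Nr2f2 had 1.66 and 2.82 in the Nr2f1/2 shRNA cultures, against 2.55 and 3.32 in the control shRNA cultures, and 1.79 and 2.30 with miR-17, against 1.36 and 2.21 with the control miRNA. Both target genes were thus lower in the knockdown at each passage, by 1.42-fold to 2.25-fold, although at P0 both were lower still with the control miRNA, as was Nr2f2 at P2. The differences over both passages, -0.98 ± 0.61 for Nr2f1 and -0.70 ± 0.28 for Nr2f2 (SE), did not pass the limma test (adjusted p 0.999 for each).

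At P2 all 4 NFI genes were lower in the Nr2f1/2 shRNA culture than in the control shRNA culture. With 1 array on each side these are differences with no test. Nfix was lower by the most, with a log2 difference of -1.86, or 3.62-fold. Nfia differed by -0.76, Nfic by -0.71 and Nfib by -0.49. Nfix was the 1 NFI gene past 2-fold, a size at which 9.78% of all genes were lower in this pair of arrays. Relative to its own P0 culture, Nfix was 14.1-fold higher at P2 with the Nr2f1/2 shRNA, against 41.8-fold with the control shRNA.

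At P0 the same comparison gave smaller differences for 3 of the 4 genes. Nfix differed by -0.29, Nfic by -0.05 and Nfia by 0.01, and Nfib, at -0.50, differed about as much as at P2. None of the 4 passed 2-fold, a size reached in either direction by 5.63% of all genes. Over both passages the differences were -1.08 ± 0.66 for Nfix, -0.49 ± 0.37 for Nfib, -0.38 ± 0.49 for Nfia and -0.38 ± 0.38 for Nfic (SE, adjusted p 0.999 for each in limma). None of the 4 had an unadjusted p under 0.05, and 0% of all genes passed the adjusted threshold, with 522 genes at an unadjusted p under 0.05. The interaction of knockdown and passage was -1.84 ± 0.72 for Nfix, with an unadjusted p of 0.062 in limma and an adjusted p of 0.9998. It was -1.19 ± 0.78 for Nfia, -0.91 ± 0.71 for Nfic and -0.27 ± 0.72 for Nfib. In this fit the passage change with the Nr2f1/2 shRNA was set against the mean of both controls, control shRNA and control miRNA. That change was 3.82 for Nfix, 1.75 for Nfia, 1.36 for Nfic and 2.09 for Nfib. With the control shRNA alone it was 5.38, 2.51, 2.02 and 2.08 in the same order. With the control miRNA it was 5.93, 3.37, 2.51 and 2.63. At the adjusted threshold 0% of all genes passed this interaction test, which had 1 residual degree of freedom, and 1085 genes had an unadjusted p under 0.05.

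The probes of a gene did not all differ alike. At P2, 10 of 12 NFI probes were lower with the Nr2f1/2 shRNA than with the control shRNA. The Nfix probes at bases 1163 and 5268 differed by -1.86 and -1.78, and the 3 Nfic probes by -0.87 to -0.71. The 2 probes that were not lower were the 5′ probes shown above, at 0.33 for Nfia and 0.04 for Nfib, where the other Nfia probe differed by -0.76 and the other 4 Nfib probes by -0.58 to -0.43. At P0 the same Nfia probe was again higher in the Nr2f1/2 shRNA culture, by 0.67, and all 5 Nfib probes were lower by 0.20 to 0.68. When a gene's probes were averaged, the Nfia difference over both passages became 0.06, so its direction rests on which probe is read.

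Since Nr2f proteins bind AGGTCA, a site shared by many nuclear receptors, the RefSeq promoters of the NFI genes were searched for it and for the NFI site. The 250 bases before each start site were used, on GRCm38.p6 and on both strands. The table held 1 start site for Nfia, 1 for Nfic and 4 for Nfix, and Nfib was not among its entries. AGGTCA occurred before 2 of the 4 Nfix starts and before neither the Nfia nor the Nfic start, and 14.0% of the 32851 promoters in the table hold it. The NFI arm TTGGC occurred before 2 of the 4 Nfix starts, as in 41.5% of all promoters. The full NFI site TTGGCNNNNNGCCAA occurred in none of the 6, and in 0.0365% of all. The AGGTCA matches do not overlap TTGGC. The windows before the 2 Nfix starts that hold AGGTCA are shown, 5′ to 3′ on the gene's minus strand, with matches in capitals: TGACCT is AGGTCA on the opposite strand, and TTGGC is the NFI arm.
Nfix, chr8:84775829-84776078: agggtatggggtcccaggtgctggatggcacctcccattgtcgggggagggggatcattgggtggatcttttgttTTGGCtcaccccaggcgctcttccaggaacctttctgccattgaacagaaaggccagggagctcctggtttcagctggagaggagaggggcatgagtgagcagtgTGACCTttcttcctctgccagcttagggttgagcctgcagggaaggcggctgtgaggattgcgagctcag
Nfix, chr8:84773411-84773660: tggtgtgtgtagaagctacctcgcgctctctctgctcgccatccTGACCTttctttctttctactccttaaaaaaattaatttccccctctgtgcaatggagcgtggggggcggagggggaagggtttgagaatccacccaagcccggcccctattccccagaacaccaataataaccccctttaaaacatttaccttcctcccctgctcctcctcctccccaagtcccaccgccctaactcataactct
These letters are matches of sequence, and no binding was measured.

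The third comparison set miR-17 against the control miRNA. miR-17 belongs to a miRNA family that is abundant in proliferating cells. Its mature 5p strand, from RefSeq (GRCm38.p6, chr14:115043684-115043706, plus strand), is shown with the seed, bases 2 to 8, in capitals because the seed sets which transcripts it can pair with.
miR-17-5p: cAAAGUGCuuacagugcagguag
The DNA match of the seed, GCACTTT, was found in 0 of the 12 NFI probes, and the remaining parts of the transcripts were not searched.

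No NFI gene was past 2-fold with miR-17 at either passage. At P2 the log2 differences were -0.81 for Nfia, -0.10 for Nfib, -0.04 for Nfic and 0.10 for Nfix, and 6.01% of all genes differed by 2-fold or more. At P0 they were -0.84 for Nfia, -0.64 for Nfib, -0.05 for Nfic and -0.48 for Nfix, and 6.7% of all genes differed by 2-fold or more. Nfia was 1.75-fold lower at P2 and 1.80-fold lower at P0, but its 5′ probe differed by -0.16 and 0.36. Among the Nfib probes those at bases 8212 and 8687 were lower at P0 by 1.14 and 1.13, past 2-fold, and differed by -0.08 and -0.02 at P2. Over both passages the differences were -0.83 ± 0.49 for Nfia, -0.37 ± 0.37 for Nfib, -0.04 ± 0.38 for Nfic and -0.19 ± 0.66 for Nfix (SE, adjusted p 0.9998 for each in limma). At the adjusted threshold 0% of all genes passed, with 271 at an unadjusted p under 0.05. For the interaction of miR-17 and passage it was also 0%, with 299 genes at an unadjusted p under 0.05, and the NFI genes had values of 0.25 to 0.86 with SE of 0.71 to 0.78. The reference of this interaction was again the mean passage change of both controls. The passage change with miR-17 was 3.41 for Nfia, 3.17 for Nfib, 2.52 for Nfic and 6.51 for Nfix. With the control miRNA alone it was 3.37, 2.63, 2.51 and 5.93 in the same order.

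The 2 control cultures, which carried neither the knockdown nor miR-17, also differed from each other. At P2 the control miRNA culture was higher than the control shRNA culture by 1.04 for Nfix, 1.03 for Nfia, 0.76 for Nfic and 0.40 for Nfib, which turned to -0.13 under quantile normalization. Nfix and Nfia were thus past 2-fold, as were 24.4% of all genes in this pair of arrays. At P0 the differences were 0.49 for Nfix, 0.27 for Nfic, 0.17 for Nfia and -0.15 for Nfib, none past 2-fold, where 21.5% of all genes were. Over both passages none of the 4 passed the limma test (0.60 ± 0.49, 0.13 ± 0.37, 0.52 ± 0.38 and 0.77 ± 0.66 for Nfia, Nfib, Nfic and Nfix, SE, adjusted p 0.638 to 0.911). Among the NFI genes, the Nfix knockdown difference of -1.86 at P2 was the 1 single-array knockdown or miR-17 difference larger in size than 1.04. That value, for Nfix at P2, was the largest control vector difference among them. Set against the control vector difference of the same gene and passage, others were also larger in size. These were Nfib with the knockdown (-0.49 at P2 and -0.50 at P0) and, at P0, Nfia and Nfib with miR-17 (-0.84 and -0.64). The remaining ones were smaller. At P2 the order of conditions, low to high, was Nr2f1/2 shRNA, control shRNA, miR-17 and control miRNA for Nfia, Nfib and Nfic, and the same for Nfix with the last pair exchanged. This order is that of the brightest probes, and the 5′ probes of Nfia and Nfib did not show it. For Nfib it also changed under quantile normalization. The miR-17 and control miRNA levels of Nfib, Nfic and Nfix at P2 differed by at most 0.10, less than the residual SD of the fit, which was 0.37 to 0.82 for these genes.

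**Figure D3:**
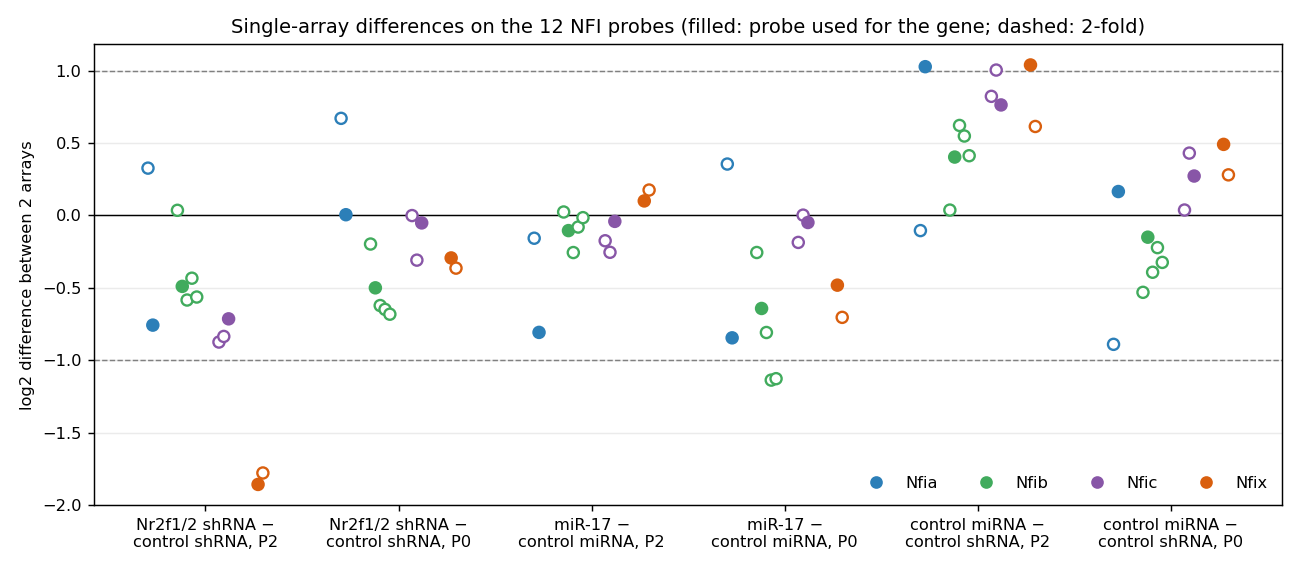
Log2 difference between 2 arrays on each NFI probe (vertical axis) for the Nr2f1/2 shRNA, miR-17 and control vector comparisons at P2 and P0, with probes of a gene running 5′ to 3′ from left to right and dashed lines at 2-fold. Both Nfix probes lie near -1.8 for the Nr2f1/2 shRNA at P2, and the 5′ Nfia probe lies above the other Nfia probe in the knockdown and miR-17 comparisons at both passages.

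Genes that act upstream of the NFI family or beside it moved unevenly. Of 11 such factors measured, 2 rose with passage, none fell, and 9 did not pass the test, where 2.55% of all genes rose. Runx2, among those 9, was well above background on only 1 array at each passage. The median passage difference was 1.15 against -0.21 over all genes. Sox8, a relative of Sox9 expressed in glial cells, rose with passage (limma adjusted p 0.035). It was well above background on 1 of the 4 P0 arrays, and with the other P0 arrays set to a floor it was at least 17.4-fold higher at P2. The floor of an array is the dimmest level well above background on it, or the gene's own level where that is higher. Zbtb20, a zinc finger factor of astrocyte development, rose by 1.78 ± 0.24 (adjusted p 0.037). Sox9, which induces Nfia in the mouse spinal cord, had log2 levels of 1.43, 2.89, 3.42 and 4.08 at P2 in the Nr2f1/2 shRNA, control shRNA, miR-17 and control miRNA cultures, against 1.11, 1.36, 0.75 and 0.74 at P0, and did not pass (adjusted p 0.071). Lhx2, a forebrain progenitor factor that opposes astrocyte formation in the mouse hippocampus, differed by -2.55 with an adjusted p that rounds to 0.050 and is not past the threshold.

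At P2 the Nr2f1/2 shRNA culture was at least 2-fold below the control shRNA culture for 5 of these 11 factors and above it for 1, against 9.78% and 8.89% of all genes, with a median difference of -0.48 against 0.07 over all genes. Olig2, which is needed for oligodendrocyte and motor neuron formation, had a log2 level of 0.09 in the P2 Nr2f1/2 shRNA culture, below all 4 P0 cultures, against 2.19 in the P2 control shRNA culture. Lhx2 was the factor above it, at 1.57 against -0.43. The P2 Nr2f1/2 shRNA culture thus stood nearer to the P0 cultures, at 1.14 to 3.24, for Lhx2. This comparison and that of passage share arrays, so their values are given side by side and no relation between them is drawn.

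Of 15 genes reported as NFI targets in the literature, 14 were measured, Gabra6 not being among the genes that passed the filter. With passage 4 rose, none fell and 10 did not pass, where 2.55% of all genes rose. The median difference was 0.77, against -0.21 over all genes, with 8 targets higher at P2 and 6 lower. Mmd2 and Zcchc24, early targets of Nfia and Sox9 in the spinal cord, rose by 5.31 ± 0.72 and 3.49 ± 0.53 (SE, limma adjusted p 0.037 and 0.042). Apcdd1, also a reported target, differed by -1.17 ± 0.43 and did not pass (limma adjusted p 0.113). Slc1a3, the glutamate transporter GLAST, rose by 1.91 ± 0.32 (adjusted p 0.045), and Fabp7, the brain lipid-binding protein of radial glia, by 1.31 ± 0.21 (adjusted p 0.043).

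Gfap, the intermediate filament of astrocytes, spread most across the P2 cultures among the 14 targets. Its log2 levels were -2.74, 1.94, 6.44 and 6.26 at P2 in the Nr2f1/2 shRNA, control shRNA, miR-17 and control miRNA cultures, against -4.21, -4.30, -3.84 and -4.69 at P0, where 3 of 4 arrays were well above background. With a passage difference of 7.23 ± 1.67 it did not pass (adjusted p 0.061). Chil1, also named Chi3l1, was not well above background on any P0 array and was at least 13.0-fold higher at P2 (adjusted p 0.056). The bound sets the P2 mean against the floor on every P0 array. Ezh2, a histone methyltransferase gene that Nfib represses in the mouse forebrain, had levels of 2.72, 0.90, 0.52 and 0.55 at P2, against 2.65, 2.62, 2.55 and 3.0 at P0, in the order Nr2f1/2 shRNA, control shRNA, miR-17 and control miRNA. Its P2 level with the Nr2f1/2 shRNA lay among the P0 levels, and its passage difference of -1.53 did not pass (adjusted p 0.079). In that culture 6 of the 14 targets were at least 2-fold below the control shRNA culture at P2, against 9.78% of all genes, and 1, Ezh2, was above it, against 8.89% of all genes.

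**Figure D4:**
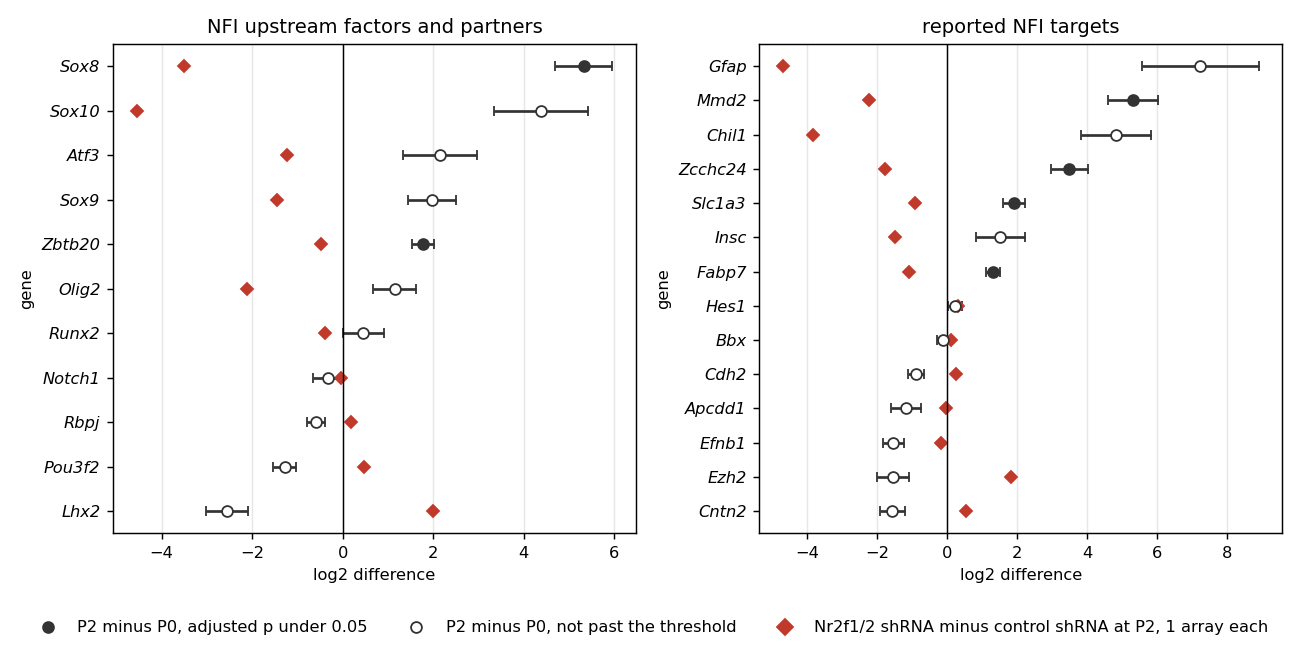
Log2 differences (horizontal axis) of genes upstream of or acting with NFI, and of reported NFI targets (vertical axes): circles give P2 minus P0 with standard errors from limma, filled where the adjusted p is under 0.05, and diamonds give the Nr2f1/2 shRNA minus control shRNA difference at P2 from 1 array each. Filled circles mark Sox8 and Zbtb20 on the left and Mmd2, Zcchc24, Slc1a3 and Fabp7 on the right. The plotted Chil1, Sox8, Runx2, Gfap and Insc differences include P0 arrays on which they were not well above background. Those of Runx2 and Cntn2 include such P2 arrays.

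Markers of cell types were followed beside the NFI genes. All lists of genes were chosen with earlier results of these data known. The shares over all genes beside their counts are therefore given for scale and test nothing. In RNA from whole cultures, fewer cells of a type and less RNA per cell cannot be told apart. All 9 neural stem and progenitor markers were well above background on all 8 arrays, counted over any probe of the gene, and so were all 8 neuron markers. None of the 9 passed the passage test, and they differed in both directions, with Nes at -1.80 and Prom1 at 1.04. Of 8 astrocyte markers 5 rose and none fell, where 2.55% of all genes rose. Their summed level, in multiples of the array's 75th percentile, was 57.1, 154, 385 and 400 at P2 in the Nr2f1/2 shRNA, control shRNA, miR-17 and control miRNA cultures, against 9.07 to 14.6 at P0. S100b and Ntsr2 were not well above background on any P0 array and were at least 154-fold and 53.6-fold higher at P2 (limma adjusted p 0.038 and 0.036). Of 8 oligodendrocyte lineage markers 5 rose and none fell, and their sums were 13.4, 124, 385 and 365 at P2 in the same order, against 6.40 to 7.25 at P0. Mbp, which enters these sums, went the other way from the remaining 7. It differed by -0.06 with passage, and by 0.69 between the Nr2f1/2 shRNA and control shRNA cultures at P2. Gpr17 was not well above background on any P0 array. The sums at P2 put the Nr2f1/2 shRNA culture lowest and the control shRNA culture next, as for the NFI genes on their brightest probes. This order of sums was not particular to glial markers: 7 of the 11 lists showed it, those of NFI upstream factors and reported NFI targets included. Among the 7, the stem and progenitor sums were 192, 277, 295 and 373 at P2 in the same order. The mesenchyme sums were 26.5, 58.8, 85.0 and 72.1, and the endothelial and blood sums 7.88, 8.76, 13.0 and 15.1. A sum is carried by its brightest genes. The median knockdown difference at P2 was -3.70 for astrocyte, -2.91 for oligodendrocyte lineage and -0.76 for mesenchyme markers. It was 0.03 for stem and progenitor markers (4 lower, 5 higher) and -0.01 for endothelial and blood markers (4 lower, 3 higher).

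Proliferation genes ran the other way. None of the 8 passed the passage test, their median difference was -2.82, and all 8 were at least 2-fold higher in the Nr2f1/2 shRNA culture than in the control shRNA culture at P2, as were 8.89% of all genes. Their sums at P2 were 89.9 with the Nr2f1/2 shRNA, 23.8 with the control shRNA, 21.0 with miR-17 and 24.6 with the control miRNA, against 83.6 to 124 at P0. The counts that follow stand beside 2.55% of all genes that rose and 4.81% that changed in either direction. Of 8 mesenchyme markers 4 rose and 1 fell, with P0 sums of 6.22 to 32.7. Of 8 neuron markers none rose and 1 fell, with sums of 83.6 to 117 at P2 against 115 to 278 at P0. Of 7 pluripotency markers 1 rose and 2 fell, and of 6 mesoderm and endoderm markers measured 1 fell. None of the 7 endothelial and blood markers measured passed. The part of these cell types and of proliferation in the NFI differences was not tested.

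Across the 8 arrays the 4 NFI genes followed each other closely. Pearson's r between pairs was 0.960 to 0.994, highest for Nfic with Nfix. These coefficients describe 8 arrays that fall into 2 separate passages, and they mostly repeat the passage difference. On deviations from each passage's mean, a measure added after seeing the data, r was 0.979 for Nfic with Nfix, 0.869 for Nfia with Nfib and 0.695 to 0.788 for the other 4 pairs. The genes with the highest r with each NFI gene were sought among the 14424 genes that were well above background on 6 or more of the 8 arrays. For Nfix they were Bcan, the brain proteoglycan brevican, Ifi27, Tst, Tgfb1i1 and Tmem40 (r 0.995 to 0.998). For Nfic they were Clec3b, Rab13, Igsf10, Sparcl1, a matrix protein of astrocytes, and Serpinb6d (r 0.995 to 0.998). For Nfia they were Eif2ak2, Bbs9, Mlc1, a membrane protein of astrocyte endfeet, Stom and Pgghg (r 0.992 to 0.996), and for Nfib they were Paqr8, Trim47, Prag1, Stambpl1 and Hacd4 (r 0.990 to 0.994). An r of at least 0.9 with a given NFI gene was reached by 6.82% to 11% of these genes, so such likeness was common.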

How the data were processed

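Per the file headers, RNA labelled with Cy3 was read on Agilent SurePrint G3 mouse arrays with Feature Extraction 10.7.3.1, and the deposited scanner files give an intensity per spot, background-subtracted and detrended. The table of signal values that the authors deposited holds the same intensity after division by an array's own constant, and served as an alternative. The deposited values are linear, and log2 values were computed here.

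Control spots and outlier spots (1104 over all arrays) were left out. From log2 intensity the log2 of the array's 75th percentile was taken away (non-control spots only). Probes had to be well above background on 2 or more of the 8 arrays, and the brightest such probe stood for its gene. A gene counted as well above background on an array if any of its kept probes was. The linear models of limma 3.58.1 (R 4.3.3) held condition and passage (3 residual degrees of freedom), and a second set also held the interactions. In that second set the control shRNA and control miRNA shared the same passage term. Gene symbols were matched by accession to RefSeq (GRCm38.p6), which named 26425 probes, and 29256 kept the file's name. Each NFI probe had 1 spot. Probes printed 10 times had a median coefficient of variation of 5.96% to 6.55%, which describes spots and not cultures. The number of arrays limits the precision.

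The members and gene lists were chosen with earlier results of these data known. Genes named are the NFI genes, the shRNA targets, the members of the lists, and the 5 genes with the highest r with each NFI gene. Fits were tested on simulated data. Alternatives were background correction, normalization, filters, probe averaging, the prior, subsets of arrays and fold limits.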

Additional observations from a re-analysis of the deposited data

How the results depend on the processing

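All 4 NFI genes passed the passage test, with the direction kept, under normexp, quantile normalization, the authors' table, no filter, a filter on all 8 arrays, averaged probes, outlier spots kept, a trended prior, no condition term and the miRNA arrays alone. Over all genes, those called were 1313 in the fit reported, 7071 with normexp, 3692 with the filter on all 8 arrays, 4295 with a trended prior, 3928 without the condition term and 13722 in the miRNA arrays alone. The share of calls that were higher at P2 was 52.9%, and 65.0%, 30.5%, 42.0%, 41.7% and 38.1% under quantile normalization, normexp, the filter on all 8 arrays, the trended prior and the miRNA arrays alone.

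No NFI gene or probe (0) was called in the shRNA arrays alone or the control conditions alone, where 0 genes passed in all. The differences for Nfia, Nfib, Nfic and Nfix there were 2.13, 2.08, 1.69 and 4.60, and 2.94, 2.36, 2.27 and 5.66. The cause was not tested. Leaving out 1 array gave 0 to 4 NFI genes, 0 to 12 NFI probes and 0 to 4786 genes called, with differences of 2.54 to 3.1 for Nfia, 2.27 to 2.63 for Nfib, 1.96 to 2.35 for Nfic and 5.05 to 5.94 for Nfix. A condition enters the passage test as a pair, so leaving out either of its arrays gave the same passage values.

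Uncalled differences changed sign as follows. With quantile normalization the Nfic miR-17 difference was 0.0099 over both passages and 0.04 at P2, and the Nfib control vector difference -0.14 over both passages and -0.13 at P2. With averaged probes the Nfia knockdown difference was 0.061 over both passages and the Nfia control vector difference at P0 was -0.36. The Nfia knockdown difference at P0, 0.01 in the fit reported, was -0.01 with normexp and with the authors' table and -0.09 with quantile normalization. The Nfia miR-17 difference at P0 kept its sign but shrank to -0.24 with averaged probes. Leaving out 1 array moved the knockdown difference to values between -1.05 and 0.30 for Nfia, between -0.77 and -0.22 for Nfib, between -0.88 and 0.11 for Nfic and between -2.14 and -0.01 for Nfix and the miR-17 difference to values between -1.26 and -0.39 for Nfia, between -0.82 and 0.078 for Nfib, between -0.32 and 0.23 for Nfic and between -0.92 and 0.54 for Nfix. The cause of these changes was not tested. Passage was paired by condition, and no replicate numbers within a group were there to pair. The 5 genes most like each NFI gene were the same over genes above background on all 8 arrays, and 0 of them were shared under Spearman's rho, which had many ties at the top, or on deviations from passage means.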
